A study of Mus musculus with 24 samples.

Results

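The genes described here are 31 genes of sterol and fatty acid synthesis, with their main transcriptional regulators and a sterol carrier. They were listed by name, by their place in these pathways, and were found on the array through each probe's gene name and transcript accession (Msmo1 is printed there as Sc4mol). The list was drawn up with earlier results of these data known. Its counts beside the shares of all genes are therefore descriptive and no independent test. The 31 genes are 31 of 27670 genes or transcripts on the array and carry 62 of its 41174 probes. All 31 had a probe above background in at least 1 group and so were among the 13488 genes tested, and 28 of them were above background on all 24 arrays.

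The study asked how cells lacking CHIP respond to heat. CHIP is the product of Stub1, a cochaperone of the heat shock proteins that also attaches ubiquitin to their clients. Mouse embryonic fibroblasts (MEFs) came from day 13.5 embryos of crosses between C57BL6 CHIP (+/-) mice, and β-mercaptoethanol was in the medium of every culture. RNA from each culture was labelled with Cy5 and hybridised beside a common Cy3-labelled reference, the Universal Mouse Reference RNA, on a 2-colour Agilent whole-genome oligonucleotide array. Wildtype, CHIP (+/+), and CHIP null, CHIP (-/-), cells were kept at 37 °C (controls) or heated at 43 °C, and RNA was taken at 30 or 240 min. The 8 combinations of genotype, temperature and time had 3 arrays each, which the labels call biological replicates without saying whether they came from separate embryos or cultures. The cells were derived from the crosses themselves, and the number of embryos behind each culture, and their sex, are not given in the sources used here.

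In the mevalonate pathway acetyl-CoA is built into isoprenoid units, which are joined to squalene, closed into lanosterol and trimmed to cholesterol. The same acetyl-CoA pool feeds fatty acid synthesis, after which elongases and desaturases shape the chains. The genes of both branches are classic targets of the SREBP transcription factors (Srebf1 and Srebf2), which are held in the endoplasmic reticulum by INSIG proteins when sterols are plentiful and are released to the nucleus when sterols run low. SREBPs bind sterol regulatory elements in promoters, commonly beside sites of the partner factors NF-Y and Sp1.

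The RefSeq promoter table (build GRCm38.p6) held 29 promoters of 24 of the 31 genes. Promoters of 4 genes are printed because these genes are among those that the comparisons turn on: Hmgcs1 for heat, and Idi1, Lss and Msmo1 for genotype. Each is the stretch of 250 bases just before the annotated start, read 5′ to 3′ on the strand of the gene, and capitals mark matches to CCAAT on either strand (so also ATTGG) and to TCACNCCAC on either strand.
Hmgcs1, chr13:119690101-119690350, plus strand: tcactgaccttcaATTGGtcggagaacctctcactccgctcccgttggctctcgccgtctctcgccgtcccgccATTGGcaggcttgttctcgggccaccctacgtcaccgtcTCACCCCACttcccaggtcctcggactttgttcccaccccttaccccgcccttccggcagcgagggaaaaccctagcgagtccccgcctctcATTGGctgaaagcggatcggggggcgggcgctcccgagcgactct
Idi1, chr13:8885356-8885605, plus strand: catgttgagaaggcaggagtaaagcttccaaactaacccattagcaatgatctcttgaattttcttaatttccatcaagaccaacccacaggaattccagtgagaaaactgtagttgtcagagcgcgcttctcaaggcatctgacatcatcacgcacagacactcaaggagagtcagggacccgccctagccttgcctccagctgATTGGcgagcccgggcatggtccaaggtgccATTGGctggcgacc
Lss, chr10:76531355-76531604, plus strand: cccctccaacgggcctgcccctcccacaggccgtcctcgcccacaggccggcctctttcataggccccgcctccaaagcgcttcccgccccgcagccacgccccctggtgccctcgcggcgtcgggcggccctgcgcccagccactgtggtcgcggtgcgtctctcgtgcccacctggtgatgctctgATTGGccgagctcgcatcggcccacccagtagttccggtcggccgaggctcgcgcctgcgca
Msmo1, chr8:64733579-64733828, minus strand: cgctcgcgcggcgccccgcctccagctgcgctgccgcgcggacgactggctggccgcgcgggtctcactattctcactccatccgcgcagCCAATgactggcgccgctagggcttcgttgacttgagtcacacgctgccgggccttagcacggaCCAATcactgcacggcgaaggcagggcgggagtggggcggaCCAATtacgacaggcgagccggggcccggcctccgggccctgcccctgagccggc
Hmgcs1 held 1 match to TCACNCCAC, a form of the sterol regulatory element, and 3 to CCAAT, the NF-Y motif. Idi1 held 2 CCAAT matches, Lss held 1 and Msmo1 held 3. Over windows of 300 bases (250 before to 50 after the start), 21 of the 29 promoters (72.4%) held CCAAT, against 37.4% of all 32851 promoters in the table. GGGCGG, the Sp1 motif, stood in 22 of the 29 (75.9%) against 35.7% of all. TCACNCCAC stood in 1 of the 29 (3.45%) against 1.24% of all. These are letter matches in a window on both strands, with GC content not matched, and they show no binding.

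Values are log2 ratios of the Cy5 sample to the Cy3 reference, so a difference of 1 between groups is one of 2-fold, and each gene is represented by its brightest probe. The log2 ratio of Stub1 ran from -0.24 to -0.01 in the wildtype samples and from -2.43 to -1.72 in the CHIP null samples, so every array matched its genotype label. Replicate arrays correlated across the tested genes with r between 0.981 and 0.995, and 32.9% to 48.6% of probes were above background. Among 12 fibroblast markers, 11 were above background on all 3 wildtype control arrays at 30 min. The same held for 9 of 13 macrophage, 5 of 6 hepatocyte, 4 of 10 adipocyte and 3 of 6 epithelial markers. Being above background therefore does not identify the cells. Each array of the authors' own table of values matched, among the scanner files, an array of the other time label (lowest r 0.998 for the best match, highest r 0.900 for the array of the same label). Times are given here as the scanner files label them, and which set of labels is right is unknown. Arrays of the 30 and 240 min labels were also scanned as separate sets on separate slides.

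With 30 min arrays, sterol and fatty acid synthesis genes were higher in CHIP null than in wildtype cells. In the controls 21 of the 31 genes were higher and 1, Tm7sf2, was lower (limma with Benjamini-Hochberg adjustment over 13488 genes at 0.05), where 14.7% of all genes tested were higher and 19.4% lower. In the heated groups 22 were higher and 0 lower, where 14.2% of all genes were higher and 13.3% lower. The median log2 difference of the 31 genes was 0.24 in the controls and 0.25 in the heated groups, against -0.01 and 0.01 over all genes tested. Elovl6, Idi1, Ebp, Lss, Stard4, Fdps and Msmo1 had the largest differences in the controls, 1.38- to 1.61-fold.

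At 240 min the counts were smaller. In the controls 5 genes were higher and 0 lower, with a background of 4.8% of all genes higher and 8.26% lower, and in the heated groups 7 were higher and 0 lower, with a background of 4.66% higher and 8.3% lower. The median log2 differences were 0.10 and 0.15, against -0.02 and -0.01 over all genes. Lss, Acly and Fads1 were the 3 genes called higher in CHIP null cells in all 4 comparisons. Hmgcs1, Mvk, Srebf1, Acss2, Scd1 and Fads2 were called in none of them. The 240 min counts moved with single arrays. The 5 in the controls became 2 without wildtype control replicate 3 or CHIP null control replicate 1, and 3 without wildtype control replicate 1. The 7 in the heated groups became 4 without heated wildtype replicate 1 or heated CHIP null replicate 2, and 12 without heated CHIP null replicate 1.

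**Figure D1:**
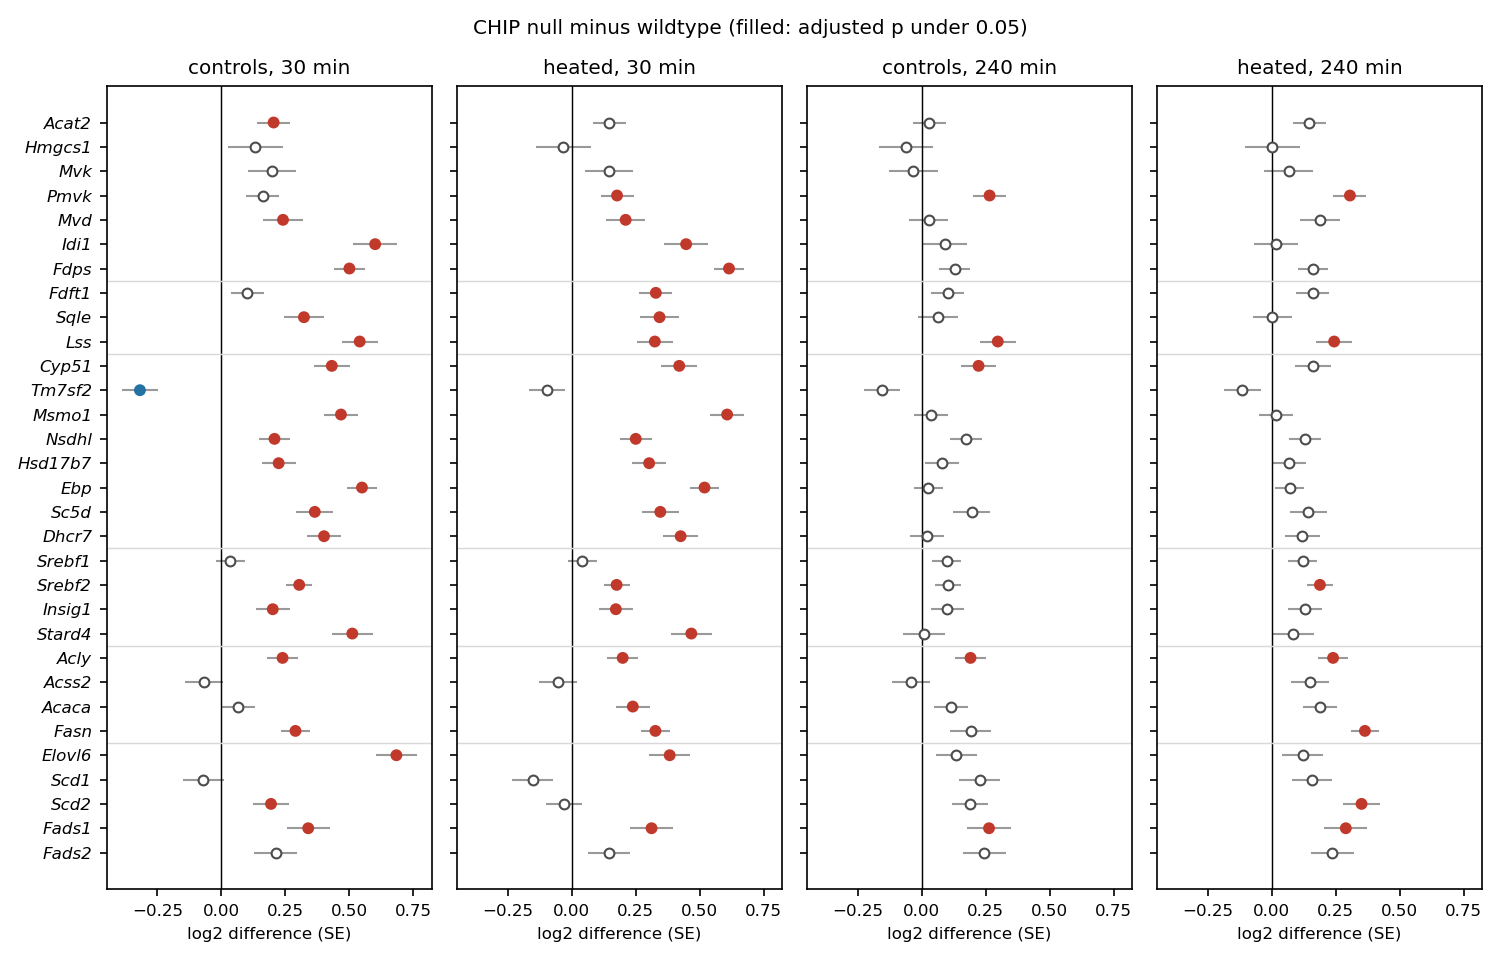
Log2 difference, CHIP null minus wildtype, of each of the 31 genes (rows, in pathway order) in the controls and heated groups at 30 and 240 min, with bars of 1 SE. Filled points passed an adjusted p of 0.05 (red higher, blue lower): 21 red and 1 blue in the 30 min controls and 22 red in the 30 min heated groups, against 5 and 7 red at 240 min.

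No slide held both genotypes of the same treatment and time, so no genotype difference could be taken within a slide. With the slide as a block in the fit, which links the genotypes only through other groups on shared slides, 14 genes were called in the 30 min controls and 9 in the 30 min heated groups, then 0 and 2 at 240 min. Of the calls above the block kept 13 in the 30 min controls (Idi1, Fdps, Lss, Cyp51, Msmo1, Ebp, Sc5d, Srebf2, Insig1, Fasn, Elovl6, Scd2 and Fads1), 9 in the 30 min heated groups (Pmvk, Idi1, Fdps, Fdft1, Lss, Msmo1, Ebp, Insig1 and Fads1), and Lss and Scd2 in the 240 min heated groups. Counts higher and lower were also taken with each array centred on its median in place of loess normalisation. They were 20 and 1 in the 30 min controls and 5 and 0 in the 30 min heated groups. At 240 min they were 2 and 0 in the controls and 0 and 0 in the heated groups. Median centring also moved calls across the whole array. Of all genes called under it, 66.9%, 29%, 38.2% and 8.11% were higher in the same order. With loess these shares were 43.1%, 51.8%, 36.8% and 36%. The median of all genes under median centring was 0.04, -0.03, 0.03 and -0.13. The Feature Extraction ratio called 22 higher and 1 lower in the 30 min controls, 23 and 3 in the 30 min heated groups, 1 and 0 in the 240 min controls and 5 and 0 in the 240 min heated groups. By that ratio the 30 min differences, controls then heated, were larger for Lss (1.16 and 1.02), Cyp51 (0.70 and 1.06), Insig1 (0.79 and 0.94) and Stard4 (0.87 and 0.86), and the 3 lower genes of the heated groups were Acss2 (-1.15), Scd1 (-0.38) and Tm7sf2 (-0.31). With an offset of 10 in place of 50, 2 genes were lower in the 30 min heated groups.

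Under the time labels of the authors' own table these results change places: that table called 2 genes in the 30 min controls and 5 in the 30 min heated groups, but 23 (22 higher, 1 lower) and 26 (23 higher, 3 lower) at 240 min. The larger genotype difference therefore belongs to the arrays labelled 30 min in the scanner files, and to 240 min if the labels of the authors' table are the right ones.

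In the first steps, from acetyl-CoA to farnesyl diphosphate, 4 of 7 genes were higher in CHIP null cells in each 30 min comparison, Mvd, Idi1 and Fdps in both, and 1 of 7, Pmvk, in each 240 min comparison. Idi1, which isomerises isopentenyl diphosphate, read -0.08, -0.05 and -0.02 on the wildtype control arrays at 30 min and 0.55, 0.54 and 0.56 on the CHIP null ones (log2 ratios). The groups lay far apart and the difference was 0.60 (SE 0.09, adjusted p = 2.03e-06), or 1.52-fold. In the heated cells at 30 min Idi1 read -0.32, -0.31 and -0.17 in wildtype and 0.17, 0.14 and 0.23 in CHIP null, again without overlap, a log2 difference of 0.45 (SE 0.09, adjusted p = 0.000163). Its dimmer probe gave log2 differences of 0.30 and 0.17. Fdps, farnesyl diphosphate synthase, read 0.15, 0.14 and 0.16 in the wildtype controls at 30 min against 0.72, 0.62 and 0.62 in the CHIP null controls, and 0.22, 0.14 and 0.10 against 0.68, 0.86 and 0.77 after heat. All CHIP null arrays lay above all wildtype arrays, with log2 differences of 0.50 (SE 0.06, adjusted p = 1.29e-07) and 0.61 (SE 0.06, adjusted p = 3.26e-09). The second Fdps probe, dimmer than the first (mean log2 brightness 6.13 against 9.01) and above background on 14 of 24 arrays, gave only 0.03 and 0.09.

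Pmvk, phosphomevalonate kinase, was the gene of these steps that was called at 240 min. It read -0.04, 0.02 and -0.12 in the wildtype controls against 0.16, 0.22 and 0.27 in the CHIP null controls, and 0.03, 0.08 and 0.15 against 0.34, 0.43 and 0.40 after heat. Neither pair of groups overlapped, and the log2 differences were 0.27 (adjusted p = 0.00475) and 0.31 (adjusted p = 0.00138), each with SE 0.06. With the slide as a block they were 0.15 and 0.20 (adjusted p = 0.576 and 0.468). At 30 min the difference was 0.16 in the controls (adjusted p = 0.0526) and 0.18 after heat (adjusted p = 0.0396), with overlap between the heated groups. Mvd, mevalonate diphosphate decarboxylase, was called in both 30 min comparisons (log2 differences 0.24 and 0.21), and Acat2, the thiolase that opens the pathway, passed in the 30 min controls (0.20, against 0.15 after heat). Mvk, mevalonate kinase, differed by -0.03 to 0.20 and was not called.

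Hmgcs1, HMG-CoA synthase, was called in no genotype comparison. Its log2 ratios at 30 min were -0.79, -0.80 and -0.97 in the wildtype controls and -0.62, -0.75 and -0.80 in the CHIP null controls, which overlap. The 4 genotype differences were 0.13, -0.06, -0.03 and 0.00 (SE 0.11, adjusted p = 0.364, 0.801, 0.862 and 0.996, for controls at 30 and 240 min and heated cells at 30 and 240 min), so no genotype difference was detected by limma.

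Of the 3 genes that carry farnesyl diphosphate to lanosterol, 2 were higher in CHIP null controls at 30 min and all 3 in the heated cells. Lss, lanosterol synthase, read -0.09, -0.05 and 0.01 in the wildtype controls at 30 min against 0.50, 0.50 and 0.50 in the CHIP null controls, a log2 difference of 0.54 (SE 0.07, adjusted p = 4.35e-07) with no overlap. After heat at 30 min it read 0.18, 0.21 and 0.07 against 0.46, 0.43 and 0.54, a difference of 0.33 (SE 0.07, adjusted p = 0.000633). At 240 min Lss stood at 0.95, 1.05 and 0.99 against 1.38, 1.40 and 1.11 in the controls and at 1.06, 1.14 and 1.20 against 1.24, 1.48 and 1.42 after heat. Again no arrays overlapped, and the log2 differences were 0.30 (adjusted p = 0.00341) and 0.24 (adjusted p = 0.0182). The other Lss probes gave 0.12 to 0.21 in the 30 min controls and -0.05 to 0.16 in the 240 min controls. In the heated groups they gave 0.16 to 0.27 at 30 min and -0.02 to 0.32 at 240 min.

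Sqle, squalene epoxidase, a rate-limiting enzyme of the later pathway, read 0.20, 0.31 and 0.16 in the wildtype controls at 30 min and 0.52, 0.64 and 0.48 in the CHIP null controls. After heat at 30 min it read -0.07, 0.05 and -0.10 against 0.27, 0.28 and 0.36. Both sets were separate, with log2 differences of 0.32 (SE 0.08, adjusted p = 0.00169) and 0.34 (SE 0.08, adjusted p = 0.00112). At 240 min the differences were 0.06 (adjusted p = 0.688) and 0.00 (adjusted p = 0.99). With the slide as a block the 30 min values were 0.34 and 0.26 (adjusted p = 0.156 and 0.286). Fdft1, squalene synthase, differed by 0.33 after heat at 30 min (adjusted p = 0.000209), where its arrays read -0.39, -0.37 and -0.39 in wildtype and -0.11, 0.02 and -0.08 in CHIP null cells, and by 0.10 in the 30 min controls, which did not pass.

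The 8 genes that turn lanosterol into cholesterol were nearly all called at 30 min, with 7 of 8 higher in CHIP null cells in the controls and 7 of 8 after heat. Ebp, the sterol isomerase, read 0.04, 0.08 and 0.04 in wildtype controls and 0.57, 0.61 and 0.63 in CHIP null controls at 30 min, a log2 difference of 0.55 (SE 0.06, adjusted p = 1.09e-08), or 1.46-fold. After heat at 30 min it read -0.11, 0.06 and -0.05 against 0.49, 0.46 and 0.50, a difference of 0.52 (SE 0.06, adjusted p = 3.69e-08). At 240 min its differences were 0.03 and 0.07, neither past the threshold. Msmo1, the sterol methyl oxidase, read 0.80, 0.82 and 0.66 in wildtype controls and 1.23, 1.20 and 1.24 in CHIP null controls at 30 min, and 0.61, 0.58 and 0.46 against 1.17, 1.14 and 1.16 after heat. Its arrays did not overlap, and the log2 differences were 0.47 (SE 0.07, adjusted p = 1.88e-06) and 0.61 (SE 0.07, adjusted p = 2.47e-08). At 240 min they were 0.04 and 0.02. Ebp and Msmo1 each have 1 tested probe.

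Cyp51, the lanosterol demethylase, was also called in the 240 min controls. It read 0.22, 0.04 and 0.03 against 0.50, 0.57 and 0.53 in the 30 min controls (log2 difference 0.43, SE 0.07, adjusted p = 1.4e-05) and 1.09, 1.09 and 0.89 against 1.35, 1.27 and 1.12 in the 240 min controls (0.22, SE 0.07, adjusted p = 0.0313). The CHIP null arrays were the higher ones at both times. After heat the differences were 0.42 at 30 min (adjusted p = 2.66e-05) and 0.16 at 240 min, which did not pass. Other Cyp51 probes gave 0.21 to 0.39 in the 30 min controls. Dhcr7, the final reductase, read -0.14, -0.15 and -0.40 in wildtype controls at 30 min and 0.14, 0.24 and 0.13 in CHIP null controls (difference 0.40, SE 0.07, adjusted p = 2.67e-05), and -0.35, -0.35 and -0.21 against 0.19, 0.02 and 0.16 after heat (0.43, SE 0.07, adjusted p = 1.47e-05). The groups did not overlap, but its second probe gave 0.00 and 0.10, and with the slide as a block the differences were 0.22 and 0.14 (adjusted p = 0.228 and 0.483). Nsdhl and Hsd17b7, which take part in removing the methyl groups, and Sc5d, a sterol desaturase, were called in both 30 min comparisons with differences from 0.21 to 0.36. Tm7sf2, a sterol reductase, went the other way in the 30 min controls, at -1.18, -1.01 and -0.89 in wildtype and -1.44, -1.23 and -1.36 in CHIP null cells (difference -0.32, SE 0.07, adjusted p = 0.000836).

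Among the 4 regulators and carriers, 3 were higher in CHIP null cells in each 30 min comparison and Srebf1 was not called. Srebf2, the SREBP that chiefly drives cholesterol genes, read -0.51, -0.47 and -0.49 in wildtype controls and -0.19, -0.19 and -0.17 in CHIP null controls at 30 min, a log2 difference of 0.30 (SE 0.05, adjusted p = 2.4e-05). After heat it read -0.55, -0.48 and -0.48 against -0.41, -0.31 and -0.26 at 30 min (0.18, adjusted p = 0.00958) and -0.18, -0.17 and -0.19 against -0.00, 0.05 and -0.03 at 240 min (0.19, adjusted p = 0.0123). None of these groups overlapped. In the 240 min controls the difference was 0.10 (adjusted p = 0.224). Other Srebf2 probes gave 0.13 to 0.42 in the 30 min controls, 0.19 to 0.29 in the 30 min heated groups and -0.01 to 0.09 in the 240 min heated groups. Srebf1, the SREBP that chiefly drives fatty acid genes, lay between -0.80 and -0.51 on all 24 arrays, and its 4 differences ran from 0.04 to 0.12.

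Stard4, a carrier of cholesterol between membranes, read -0.82, -0.77 and -0.84 in wildtype controls and -0.29, -0.33 and -0.28 in CHIP null controls at 30 min, a log2 difference of 0.51 (SE 0.08, adjusted p = 1.07e-05). After heat at 30 min it read -0.78, -0.78 and -0.66 against -0.22, -0.39 and -0.21, a difference of 0.47 (SE 0.08, adjusted p = 4.87e-05), again without overlap. The dimmer Stard4 probes gave 0.16 to 0.20 and 0.02 to 0.24, and with the slide as a block the differences were 0.41 and 0.39 (adjusted p = 0.0924 and 0.107). Insig1, which retains the SREBPs in the endoplasmic reticulum and is itself an SREBP target, read -0.35, -0.19 and 0.01 in wildtype controls and 0.03, -0.00 and 0.04 in CHIP null controls at 30 min. Those groups overlapped, with a difference of 0.20 (SE 0.07, adjusted p = 0.0184). After heat it read -0.06, -0.10 and -0.01 against 0.07, 0.16 and 0.12 (0.17, SE 0.07, adjusted p = 0.0497). At 240 min its differences of 0.10 and 0.13 did not pass, and its second probe gave 0.06 and 0.13 in the 30 min comparisons.

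In acetyl-CoA supply and fatty acid synthesis, Acly, ATP citrate lyase, was higher in CHIP null cells in all 4 comparisons. It read -0.18, -0.00 and -0.12 against 0.06, 0.20 and 0.16 in the 30 min controls and 0.61, 0.62 and 0.60 against 0.89, 0.70 and 0.81 in the 240 min controls. The groups did not overlap, and the log2 differences were 0.24 and 0.19, with 0.20 and 0.24 after heat at 30 and 240 min (SE 0.06, adjusted p from 0.00234 to 0.0312). Acly passed in none of the 4 with the slide as a block (0.17 and 0.08 in the controls, 0.15 and 0.19 after heat, adjusted p from 0.394 to 0.822). With each array centred on its median Acly passed only in the 30 min controls. Fasn, fatty acid synthase, read 0.19, 0.08 and 0.01 against 0.38, 0.40 and 0.37 in the 30 min controls (0.29, adjusted p = 0.000179) and -0.21, -0.25 and -0.22 against 0.03, 0.13 and 0.15 after heat (0.33, adjusted p = 5.01e-05). At 240 min after heat it read 0.34, 0.28 and 0.32 against 0.69, 0.64 and 0.69 (0.36, adjusted p = 3.27e-05), each with SE 0.06. All CHIP null arrays were above all wildtype arrays in these 3 sets. In the wildtype controls at 240 min only replicate 2 gave a usable Fasn spot (0.41), the spots of the other arrays being outliers, and the difference of 0.19 there (adjusted p = 0.121) rests on it. The second Fasn probe gave differences of 0.05 to 0.22. Acaca, acetyl-CoA carboxylase, passed in the 30 min heated groups (0.24) and not in the other 3 comparisons (0.06 to 0.19). Acss2, which activates acetate, differed by -0.07 to 0.15 and was not called. Its probe was not well above background on any heated CHIP null array at 30 min.

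Elovl6, the elongase of saturated chains, had the largest genotype difference of the 31 genes in the 30 min controls. It read -0.56, -0.42 and -0.54 in wildtype and 0.20, 0.14 and 0.19 in CHIP null controls, a log2 difference of 0.68 (SE 0.08, adjusted p = 8.29e-08), or 1.61-fold. After heat at 30 min it read -0.59, -0.72 and -0.52 against -0.33, -0.17 and -0.17 (0.38, adjusted p = 0.000475), and at 240 min the differences were 0.14 and 0.12, which did not pass. Fads1, a front-end desaturase of polyunsaturated chains, was called in all 4 comparisons, with log2 differences of 0.34, 0.26, 0.31 and 0.29 (controls at 30 and 240 min, then heated cells at 30 and 240 min, SE 0.08, adjusted p from 0.00228 to 0.0365). It read -0.10, -0.02 and -0.01 against 0.30, 0.27 and 0.31 in the 30 min controls and 0.43, 0.61 and 0.54 against 0.78, 0.93 and 0.66 in the 240 min controls. Both sets were apart, while the 240 min heated groups overlapped. At 240 min Fads1 did not pass with the slide as a block (0.12 and 0.41, adjusted p = 0.759 and 0.133). Fads2, its partner desaturase, differed by 0.15 to 0.24 and was not called (adjusted p = 0.0511 in the 30 min controls).

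Scd2, a stearoyl-CoA desaturase, read -0.50, -0.47 and -0.39 in wildtype controls and -0.26, -0.15 and -0.37 in CHIP null controls at 30 min (log2 difference 0.19, SE 0.07, adjusted p = 0.0355). After heat at 240 min it read -0.08, -0.13 and -0.09 against 0.36, 0.29 and 0.10 (0.35, SE 0.07, adjusted p = 0.000911). CHIP null arrays were higher in both, and the differences in the other 2 comparisons, 0.19 in the 240 min controls and -0.03 in the 30 min heated groups, did not pass. Scd1, its paralog, lay between -1.50 and -0.91 on all 24 arrays, with genotype differences of -0.07 and 0.23 in the controls and -0.15 and 0.16 after heat, none past the threshold.

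**Figure D2:**
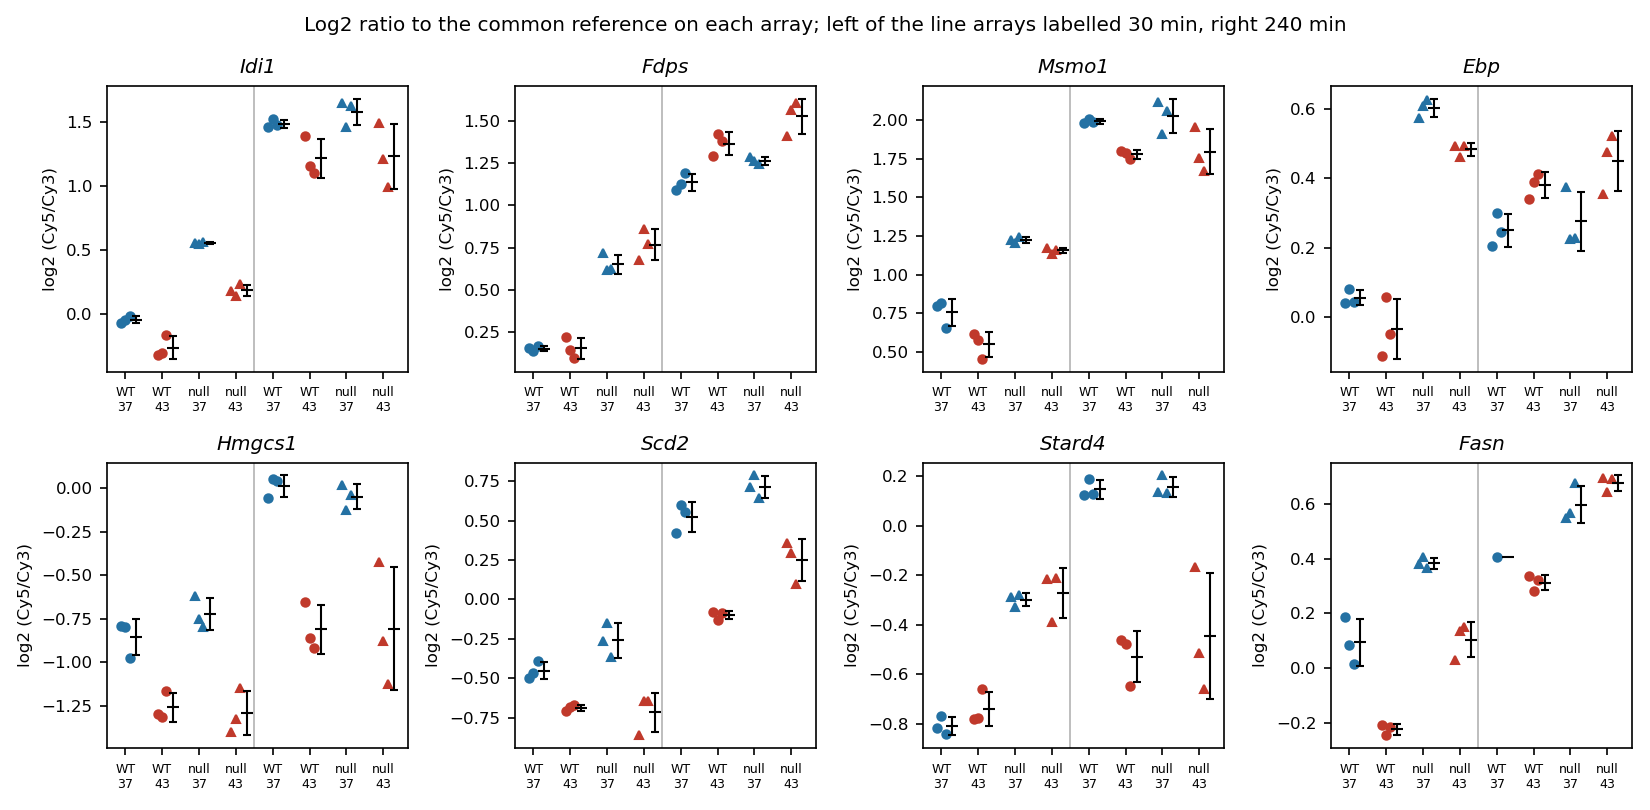
Log2 ratio (Cy5 sample over Cy3 reference) of 8 genes on each array, by group, with arrays labelled 30 min left of the grey line and 240 min right of it. Circles are wildtype and triangles CHIP null, blue 37 °C and red 43 °C, and black bars are the group mean and SD (the mean is 1 array for Fasn in the 240 min wildtype controls). Idi1, Fdps, Msmo1 and Ebp show the CHIP null groups above wildtype at 30 min, and Hmgcs1 and Scd2 show the heated groups below their controls.

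Several other transcripts differed between the genotypes in the same comparisons. Xist, transcribed from the inactive X chromosome, was higher in CHIP null cells by 1.80 in the controls and 1.64 in the heated groups at 30 min (log2), and by 0.03 and 0.01 at 240 min. The Y-linked Eif2s3y was lower by log2 differences of -1.36 and -0.97 at 30 min, and stood at -0.04 and 0.04 at 240 min. Ebp and Nsdhl lie on chromosome X, and without them 19 of 29 genes were higher in the 30 min controls and 20 of 29 in the 30 min heated groups. All 9 tested macrophage markers, of 13 listed, were lower in the CHIP null controls at 30 min (median log2 difference -0.47, background 19.4% lower). The mean log2 ratio per array of all 13, tested or not, was -0.36 to -0.33 in wildtype and -1.12 to -1.0 in CHIP null cells. Itgam and Mrc1 were not above background in those wildtype controls, nor were Itgam, Mrc1, Cd53 and Laptm5 in those CHIP null controls. In the other comparisons 5 (240 min controls), 3 (30 min heated) and 4 (240 min heated) of the 9 were lower. The background there was 8.26%, 13.3% and 8.3% of all genes lower. Fibroblast markers were higher in 7 and lower in 1 of 12 in the 30 min controls (median 0.45, background 14.7% higher and 19.4% lower). Their array means there were -0.78 to -0.65 in wildtype and -0.46 to -0.34 in CHIP null cells. In the 30 min heated groups the means were -0.95 to -0.70 and -0.27 to -0.21. At 240 min they were -0.46 to -0.27 and -0.35 to -0.01 in the controls, and -0.43 to -0.36 and -0.29 to 0.11 after heat. Of 8 tested adipocyte markers 0 were higher and 1 lower in the 30 min controls. Plin1, Lep and Retn were not above background in the wildtype controls at 30 min. The part of these differences in the values of the 31 genes was not tested, and in RNA from whole cultures a change in the share of a cell type cannot be told apart from a change per cell.

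A small set of these genes was lower after heat in both genotypes. Hmgcs1, Sqle and Scd2 were lower at 43 °C than at 37 °C in all 4 comparisons (limma, Benjamini-Hochberg adjusted p under 0.05 in each). At 30 min 5 genes fell and 1 rose in wildtype cells, where 7.79% of all genes fell and 6.77% rose, and 7 fell and 3 rose in CHIP null cells, where 12.6% of all genes fell and 22.6% rose. At 240 min 8 fell and 3 rose in wildtype cells (background 12.7% and 18.8%), and 8 fell and 8 rose in CHIP null cells (background 14.5% and 24.5%). The median log2 difference of the 31 genes was 0.00, -0.02, 0.04 and 0.08 (wildtype and CHIP null at 30 min, then at 240 min), against 0.01, 0.03, 0.06 and 0.07 over all genes, so the genes did not move one way as a group. Mvd, Lss, Cyp51, Sc5d, Dhcr7, Srebf1, Insig1, Acly, Scd1, Fads1 and Fads2, 11 of the 31, were called in no heat comparison.

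**Figure D3:**
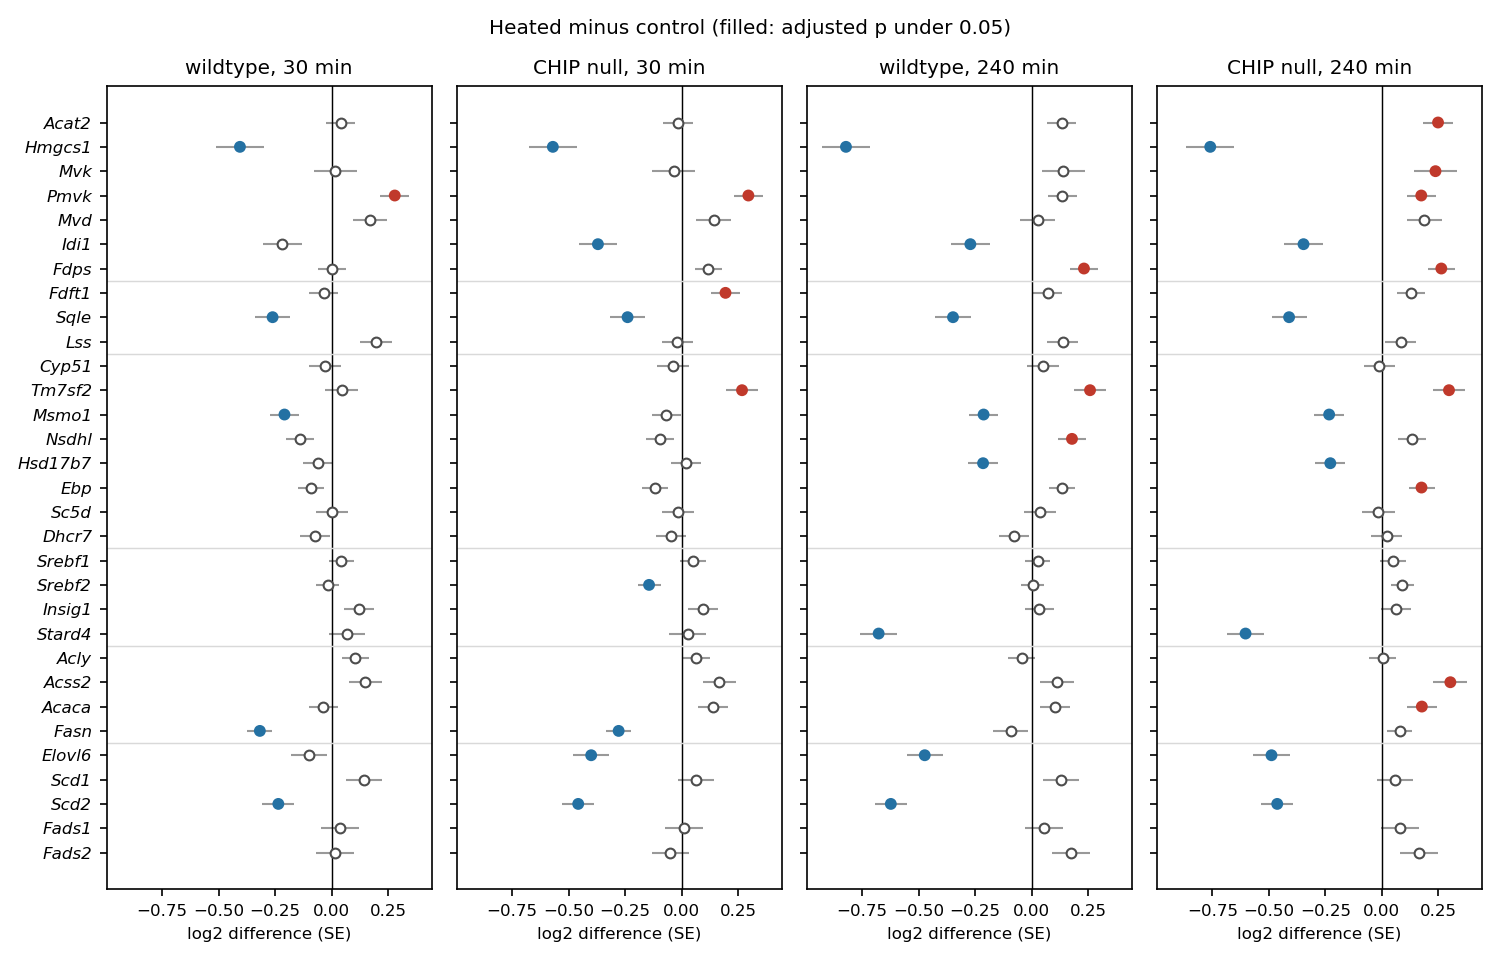
Log2 difference, heated minus control, of each of the 31 genes (rows, in pathway order) in wildtype and CHIP null cells at 30 and 240 min, with bars of 1 SE. Filled points passed an adjusted p of 0.05 (red higher, blue lower), with Hmgcs1, Sqle and Scd2 blue in all 4 panels and Stard4 blue at 240 min.

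In each heat comparison 1 slide held arrays of both groups, with a lone array on 1 side. All called genes kept their sign within it: 6 of 6 and 10 of 10 in wildtype and CHIP null cells at 30 min, and 11 of 11 and 16 of 16 at 240 min. Those arrays are among the ones that made the calls, so a kept sign is no separate support. The within-slide differences are also the ones that the slide block estimates. With the slide as a block the counts called were 0, 6, 3 and 12 in the same order, against 6, 10, 11 and 16 without it. The calls kept by the block were Hmgcs1, Stard4 and Scd2 in wildtype cells at 240 min, Hmgcs1, Idi1, Srebf2, Fasn, Elovl6 and Scd2 in CHIP null cells at 30 min, and 10 of the 16 in CHIP null cells at 240 min, among them Hmgcs1, Idi1, Sqle, Stard4, Elovl6 and Scd2. With each array centred on its median in place of loess, 0, 19, 6 and 12 genes were lower and 0 higher in any of the 4. The Feature Extraction ratio gave 2 higher and 3 lower, 3 and 7, 0 and 7, and 1 and 8, and an offset of 10 gave 2 and 6, 3 and 8, 2 and 8, and 4 and 8. Median centring put the median of all genes at -0.09, -0.18, -0.03 and -0.18, and that of the genes described at -0.14, -0.37, -0.03 and -0.23. Of all genes called under it, only 4.2%, 0.8%, 4.32% and 0.41% were higher, so calls ran to the lower side across the whole array. Single arrays moved 3 of the counts. The 6 became 3 without wildtype control replicate 1 or 2 or heated wildtype replicate 3, the 11 became 7 without heated wildtype replicate 3, and the 16 became 10 without heated CHIP null replicate 3.

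Hmgcs1 had the largest fall of the 31 genes in each heat comparison. Its heated wildtype arrays read -1.30, -1.32 and -1.17 at 30 min, below the controls given above, and its heated CHIP null arrays -1.40, -1.33 and -1.15. At 240 min the controls read -0.06, 0.05 and 0.04 in wildtype and 0.02, -0.12 and -0.04 in CHIP null cells, against -0.65, -0.86 and -0.92 and -0.43, -0.88 and -1.12 after heat. Heated and control arrays did not overlap in any of the 4 sets. The log2 differences were -0.41 (adjusted p = 0.0113) and -0.57 (adjusted p = 0.000237) at 30 min and -0.82 (adjusted p = 3.55e-06) and -0.76 (adjusted p = 6.73e-06) at 240 min, wildtype then CHIP null, each with SE 0.11. Within slides they were -0.29, -0.68, -0.66 and -0.77, and with the slide as a block the first did not pass (adjusted p = 0.326). The second Hmgcs1 probe gave -0.03, -0.09, -0.13 and -0.23. It was near the floor of the scale, with a mean log2 brightness of 6.05 against 9.73, and above background on 10 of 24 arrays.

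Scd2 read -0.71, -0.68 and -0.67 in heated wildtype cells at 30 min and -0.86, -0.65 and -0.64 in heated CHIP null cells. At 240 min its controls read 0.42, 0.60 and 0.55 in wildtype and 0.71, 0.79 and 0.64 in CHIP null cells, all above the heated arrays given before. The log2 differences were -0.24 (adjusted p = 0.0255) and -0.46 (adjusted p = 3.77e-05) at 30 min and -0.62 (adjusted p = 5.47e-07) and -0.46 (adjusted p = 2.11e-05) at 240 min, wildtype then CHIP null, each with SE 0.07. Within slides they were -0.30, -0.60, -0.60 and -0.39. Elovl6 fell in 3 of the 4 comparisons, with log2 differences of -0.40 in CHIP null cells at 30 min (adjusted p = 0.000439) and of -0.47 and -0.49 at 240 min (adjusted p = 9e-05 and 4.88e-05), each with SE 0.08. At 240 min it read 0.52, 0.62 and 0.52 in wildtype controls against 0.21, -0.04 and 0.06 after heat, and 0.83, 0.66 and 0.57 against 0.38, 0.19 and 0.03 in CHIP null cells, without overlap. In wildtype cells at 30 min its difference was -0.10, which did not pass. Scd1 differed by 0.06 to 0.14 and Fads1 by 0.01 to 0.08, none past the threshold.

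Sqle read 1.09, 1.27 and 1.21 in wildtype controls at 240 min against 0.90, 0.78 and 0.85 after heat, and 1.25, 1.32 and 1.20 against 1.06, 0.85 and 0.63 in CHIP null cells. No heated array reached a control array of its genotype and time. The log2 differences were -0.26 (adjusted p = 0.0236) and -0.24 (adjusted p = 0.0178) at 30 min and -0.35 (adjusted p = 0.00148) and -0.41 (adjusted p = 0.000253) at 240 min, wildtype then CHIP null, each with SE 0.08. With the slide as a block the last remained past the threshold (-0.36, adjusted p = 0.0282), and the first 3 did not (-0.19, -0.27 and -0.29, adjusted p = 0.395, 0.0892 and 0.126). Idi1 fell in 3 of the 4, with differences of -0.37 in CHIP null cells at 30 min (adjusted p = 0.00148) and -0.27 and -0.35 at 240 min (adjusted p = 0.0168 and 0.00266). It read 1.46, 1.52 and 1.48 in wildtype controls at 240 min against 1.39, 1.16 and 1.10 after heat, and 1.65, 1.46 and 1.63 against 1.49, 1.21 and 0.99 in CHIP null cells, where the groups overlapped. In wildtype cells at 30 min its difference was -0.22 (adjusted p = 0.0844). Msmo1 fell by smaller amounts, with differences of -0.21 in wildtype cells at both times and -0.23 in CHIP null cells at 240 min, and Hsd17b7 fell at 240 min, with differences of -0.22 and -0.23.

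Stard4 changed with heat at 240 min but was not called at 30 min, where its differences were 0.07 and 0.03. At 240 min its controls read 0.12, 0.19 and 0.13 in wildtype and 0.14, 0.20 and 0.13 in CHIP null cells, against -0.46, -0.48 and -0.65 and -0.17, -0.51 and -0.66 after heat. The groups were far apart, with log2 differences of -0.68 (SE 0.08, adjusted p = 1.11e-06) and -0.60 (SE 0.08, adjusted p = 3.54e-06), and -0.61 and -0.58 within slides. The other Stard4 probes, of mean log2 brightness 6.19 and 6.08 against 8.11, did not show this fall: they gave 0.07 in wildtype cells and 0.03 to 0.12 in CHIP null cells. Fasn fell at 30 min, with differences of -0.32 (adjusted p = 0.000545) in wildtype and -0.28 (adjusted p = 0.000504) in CHIP null cells, each with SE 0.06 and no overlap between the groups given above. At 240 min the differences were -0.09, resting on the lone control array, and 0.08 (adjusted p = 0.366 and 0.263). The second Fasn probe (mean log2 brightness 6.61 against 11.2) gave 0.00 and -0.10 at 30 min and 0.26 and 0.21 at 240 min. Srebf2 fell by 0.14 in CHIP null cells at 30 min (adjusted p = 0.0282), where its other probes gave -0.06 to 0.13, and Srebf1 differed by 0.03 to 0.05 and Insig1 by 0.03 to 0.12, with no call for either.

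**Figure D4:**
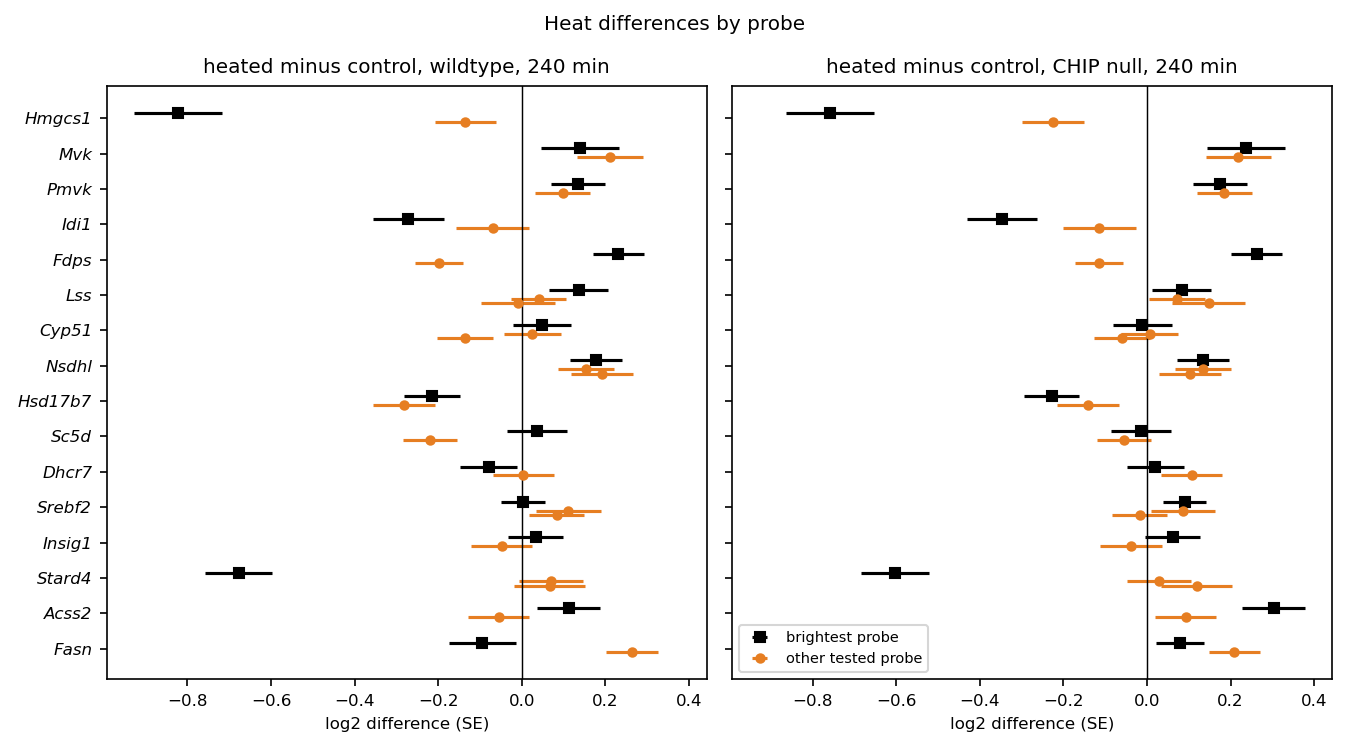
Log2 difference, heated minus control at 240 min, of every tested probe of the 16 genes with more than 1 tested probe, in wildtype and CHIP null cells, with bars of 1 SE. Black squares are the brightest probe and orange circles the others: for Hmgcs1, Idi1 and Stard4 the brightest probe lies well below 0 and the dimmer ones lie nearer 0 or above it, and for Fdps they lie on opposite sides of 0.

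Called genes with other tested probes were mostly not called by a second probe. Among the genes lower with heat, 2 (wildtype) and 4 (CHIP null) had another tested probe at 30 min and 0 of them had a second probe called the same way, and at 240 min 1 of 4 did in each genotype. Among the genes higher in CHIP null cells, a second probe was called the same way in 5 of 12 in the 30 min controls, 5 of 13 in the 30 min heated groups, 1 of 3 in the 240 min controls and 2 of 4 in the 240 min heated groups.

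The genes higher after heat were mostly others, and their counts were near or below the background. In wildtype cells 1 rose at 30 min and 3 at 240 min, where 6.77% and 18.8% of all genes rose. In CHIP null cells 3 rose at 30 min and 8 at 240 min, where 22.6% and 24.5% of all genes did. Pmvk rose in 3 of the 4 comparisons. It read -0.52, -0.49 and -0.38 in wildtype controls at 30 min against -0.22, -0.21 and -0.12 after heat, and -0.39, -0.23 and -0.28 against -0.12, 0.13 and -0.03 in CHIP null cells. Both sets were separate, with log2 differences of 0.28 (adjusted p = 0.00434) and 0.30 (adjusted p = 0.000977), and 0.17 in CHIP null cells at 240 min (adjusted p = 0.0339), each with SE 0.06. Its second probe gave 0.05, 0.05 and 0.19. Tm7sf2 rose in 3 of the 4 as well, with differences of 0.27 in CHIP null cells at 30 min and 0.26 and 0.30 at 240 min (adjusted p from 0.00232 to 0.00806). Fdps was higher at 240 min in wildtype (0.23, adjusted p = 0.00513) and CHIP null cells (0.26, adjusted p = 0.00146), while its second probe gave -0.20 and -0.12. Acss2 was higher in CHIP null cells at 240 min, with -0.63, -0.68 and -0.57 in the controls and -0.44, -0.38 and -0.15 after heat (0.30, SE 0.07, adjusted p = 0.00275). Smaller rises passed for Nsdhl in wildtype cells at 240 min, for Fdft1 in CHIP null cells at 30 min, and for Acat2, Mvk, Ebp and Acaca in CHIP null cells at 240 min, with differences of 0.18 to 0.25. With each array centred on its median none of these rises passed, and the CHIP null differences of Pmvk, Tm7sf2, Fdft1, Mvk, Ebp and Acaca turned negative.

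Whether heat acted differently in the genotypes was tested as an interaction, which limma called for 0 of the 31 genes at 30 min and 0 at 240 min, with a background of 0.445% and 0% of all genes. At an unadjusted p under 0.05 there were 5 at 30 min and 0 at 240 min. The share of all genes at that looser threshold is not given here, so the 5 are not read as a sign of interaction. The largest interaction was that of Elovl6 at 30 min, -0.30 (SE 0.11, adjusted p = 0.29). A replicate block and the other settings run gave 0 as well. These tests do not show that the genotypes respond alike.

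Levels were higher on the control arrays labelled 240 min than on those labelled 30 min for most of the 31 genes, a difference that cannot be told apart from the scan sets. In wildtype controls 25 of 31 were higher and 1 lower, where 27.9% of all genes were higher and 35.6% lower, and in CHIP null controls 23 were higher and 1 lower (background 19% and 29.6%). Idi1 differed most, by 1.54 in wildtype and 1.03 in CHIP null cells on the log2 scale, followed in wildtype by Msmo1 (1.23 and 0.80), Elovl6 (1.06 and 0.51) and Lss (1.04 and 0.80). Stard4 differed by 0.96 and 0.46, Fdps by 0.98 and 0.61, and Ebp by 0.20 and -0.33. Acaca (0.04 and 0.09) and Acss2 (-0.03 and 0.00) were among the flattest. Scd1 was flat in wildtype (0.00) but not in CHIP null cells (0.30). Both time differences share their control arrays with the comparisons above.

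The change of the genotype difference between the times was tested after the data had been seen. For 8 of the 31 genes the log2 difference, CHIP null minus wildtype, was larger at 30 than at 240 min in the controls and for 0 it was smaller (limma, background 8.92% and 9.14% of all genes). In the heated groups it was larger for 7 and smaller for 1 (background 10.5% and 7.25%). The heat difference was higher at 240 than at 30 min for 0 genes and lower for 2 in wildtype cells (background 0.741% and 0.519%), and higher for 2 and lower for 1 in CHIP null cells (background 1.08% and 1.29%). Ebp, Idi1, Stard4, Msmo1, Dhcr7 and Fdps passed in both genotype tests, and Stard4 in both heat tests. With median centring the genotype counts, larger and smaller, were 2 and 0 in the controls and 2 and 0 in the heated groups. With the slide as a block they were 2 and 0, then 0 and 0. By the Feature Extraction ratio they were 9 and 0, then 12 and 3. Both heat tests gave 0 genes under median centring and under the slide block. Of the genes larger at 30 min, 5 (controls) and 4 (heated groups) had another tested probe, and 0 had it called the same way.

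**Figure D5:**
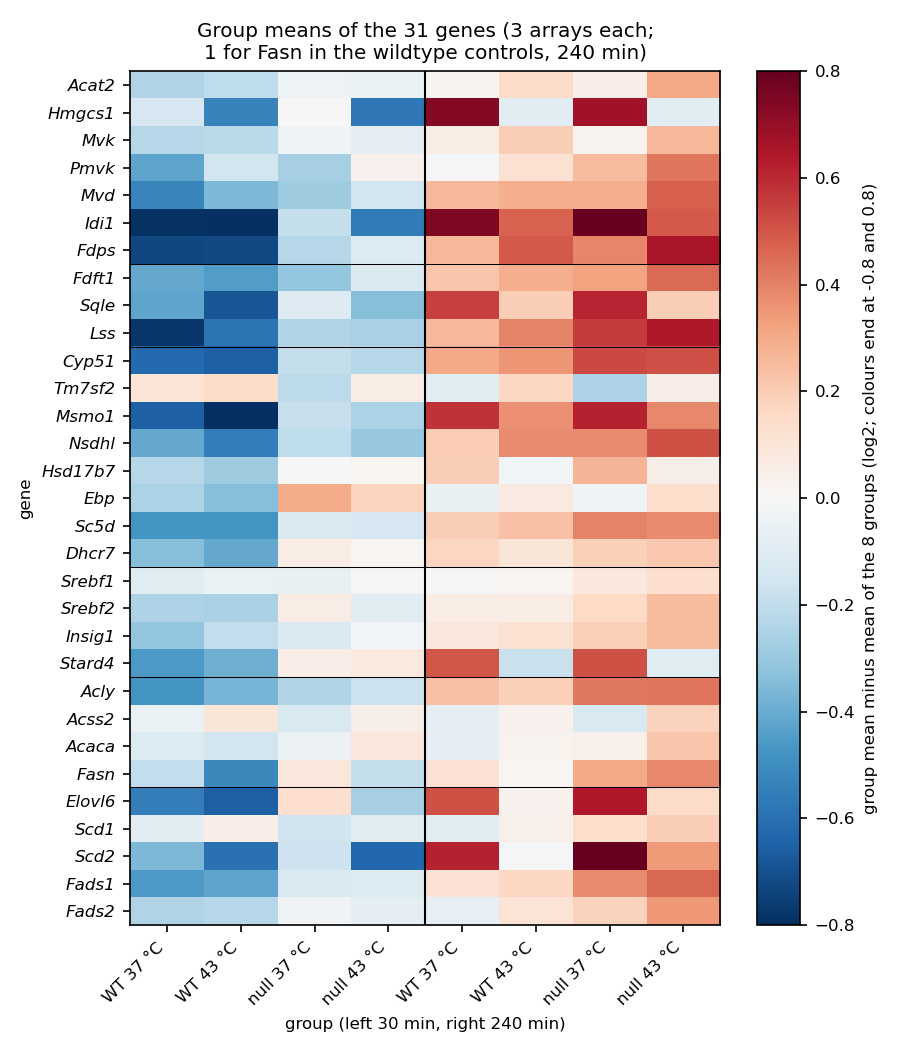
Group mean log2 ratio of each of the 31 genes (rows, in pathway order) minus the mean of the 8 groups, red higher and blue lower, with colours ending at -0.8 and 0.8 and the 30 min groups left of the black line. Most rows are bluest in the 30 min wildtype groups, paler in the 30 min CHIP null groups and red at 240 min, with Srebf1, Acss2 and Scd1 varying least between groups.

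Other genes of sterol and fatty acid handling were read from further lists, which were also chosen with earlier results of these data known. Over all genes tested, 14.7%, 14.2%, 4.8% and 4.66% were higher in CHIP null cells and 19.4%, 13.3%, 8.26% and 8.3% lower (controls and heated groups at 30 min, then at 240 min). Among 12 tested genes of sterol synthesis, uptake and SREBP processing, 4 were higher and 4 lower in CHIP null controls at 30 min, 4 and 1 in the 30 min heated groups, 2 and 1 in the 240 min controls and 3 and 1 in the 240 min heated groups. Lpin1, a phosphatidate phosphatase, was lower, with a difference of -0.49 in the 30 min controls (adjusted p = 7.38e-07). With heat, 0 rose and 1 fell in wildtype and 1 and 0 in CHIP null cells at 30 min, then 0 and 4 and 1 and 3 at 240 min. Over all genes 6.77%, 22.6%, 18.8% and 24.5% rose with heat and 7.79%, 12.6%, 12.7% and 14.5% fell (wildtype and CHIP null cells at 30 min, then at 240 min).

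Among 12 tested genes of sterol efflux, storage and LXR signalling, 0 were higher and 6 lower in CHIP null controls at 30 min and 0 and 2 in the heated groups, then 1 and 1 in each 240 min comparison, where 19.4% and 13.3% of all genes were lower at 30 min and 8.26% and 8.3% at 240 min. Apoe, the lipoprotein component that macrophages also make, differed by -1.49 and -1.23 at 30 min and -0.34 and -0.22 at 240 min. Abca1, the cholesterol efflux pump, differed by -1.01 and -0.57 at 30 min. Soat1, which esterifies cholesterol, was higher in the 240 min controls (0.42, adjusted p = 0.000287). With heat, 0, 5, 2 and 5 of the 12 rose and 0, 1, 0 and 2 fell (wildtype and CHIP null at 30 min, then at 240 min), against 6.77%, 22.6%, 18.8% and 24.5% and 7.79%, 12.6%, 12.7% and 14.5% of all genes. Npc2, a lysosomal cholesterol carrier, was among those that rose (0.33 in CHIP null cells at 30 min). Apoe and Abca1 stand beside the macrophage markers given above, and their common part was not tested.

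Among 22 tested genes of fatty acid elongation, activation and glycerolipid synthesis, 3 were higher and 7 lower in CHIP null controls at 30 min, 4 and 2 in the heated groups, and 1 and 3 in each 240 min comparison. In the 30 min controls 14.7% of all genes were higher and 19.4% lower, so the count of higher genes is near the background. The shares of all genes higher and lower were 14.2% and 13.3% in the 30 min heated groups. They were 4.8% and 8.26% in the 240 min controls and 4.66% and 8.3% in the 240 min heated groups. With heat, 1, 11, 5 and 6 rose and 2, 2, 2 and 3 fell (wildtype and CHIP null cells at 30 min, then at 240 min). Of all genes 6.77%, 22.6%, 18.8% and 24.5% rose and 7.79%, 12.6%, 12.7% and 14.5% fell. Acsl4, an acyl-CoA synthetase, fell in all 4 heat comparisons, with log2 differences of -0.47 and -0.56 at 30 min and -0.72 and -0.91 at 240 min. Hacd3, a dehydratase of the elongation cycle, fell by smaller amounts (-0.22 and -0.26, then -0.34 and -0.34). Its largest difference was between genotypes, lower in CHIP null cells in the 30 min heated groups (-0.55, limma adjusted p = 1.79e-07). Among 17 fatty acid oxidation genes the genotype direction at 30 min was the opposite of the synthesis genes: 0 were higher and 12 lower in CHIP null controls (median -0.24, background 14.7% higher and 19.4% lower) and 0 and 7 in the heated groups (background 14.2% and 13.3%). At 240 min the counts were 0 and 1 in the controls and 0 and 2 in the heated groups. There 8.26% and 8.3% of all genes were lower, so these lower counts are near the background. Ppargc1a, a coactivator of mitochondrial genes, differed by -0.84 and Pdk4, a kinase that restrains pyruvate oxidation, by -0.75 in the 30 min controls. With heat 3, 9, 5 and 7 of the 17 rose and 1, 0, 0 and 0 fell (wildtype and CHIP null cells at 30 min, then at 240 min). Of all genes 6.77%, 22.6%, 18.8% and 24.5% rose and 7.79%, 12.6%, 12.7% and 14.5% fell, in that order.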

How the data were processed

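The deposited scanner files of 24 arrays hold mean and background intensity per spot and a log10 ratio of red over green, made by the authors with Agilent Feature Extraction 9.1.3.1 per the file headers. The ratio is Cy5 sample over Cy3 reference, as the labels give the dyes. The authors' deposited values (28139 probes, per the column labels) were not plain log2 ratios, and were rescaled to log2 after matching to the scanner files. Heated columns were matched as differences from the mean of their controls, and that mean was added back before the fit. Column medians as deposited were -0.05 to 0.02. These values served as an alternative. The deposited flag columns (other) gave spots above background.

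Intensities were corrected with normexp (offset 50, which pulls ratios of dim probes towards 0) and normalised by loess within arrays in limma 3.58.1 (R 4.3.3). Control spots had weight 0, and 333 outlier spots of 43379 were left out. Of 41174 probes, 22951 were named by accession, 6659 by symbol and 3109 by synonym through RefSeq, and 8455 kept the file's name. Probes not above background on all 3 arrays of any group were dropped, which left 19358 probes and 13488 genes, each by its brightest probe. A fit of 8 group means (residual df 16, prior df 11.7) was moderated by eBayes, and p-values were adjusted by Benjamini-Hochberg over all genes at 0.05. SE is the moderated standard error. The script was tested on simulated data. The number of arrays limits the precision. Genes were named by a fixed rule: up to 6 largest non-overlapping calls per comparison plus 8 genes whatever their values, and up to 4 per further list, some of which are not reported here. Members and lists were chosen with earlier results of these data known. Same-numbered arrays had correlated deviations of r from -0.26 to 0.57, all positive in both 240 min genotype comparisons (0.09 to 0.57), but in no comparison were all 3 pairs over 0.1, so replicate numbers were not taken as pairs. Alternatives were median centring, the Feature Extraction ratio, offset 10, no filter, the mean of a gene's probes, slide and replicate blocks, leaving out arrays, and the deposited values of the authors.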

Additional observations from a re-analysis of the deposited data

Results flagged for a closer look

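Differences between the 2 time labels were tested for the named genes after the data had been seen, and they also separate the scan sets, from which time cannot be told apart. In the controls the genotype difference (CHIP null minus wildtype) was larger at 30 than at 240 min, by log2 values, for Elovl6 (0.55), Ebp (0.52), Idi1 (0.51), Stard4 (0.50), Msmo1 (0.43), Dhcr7 (0.38), Fdps (0.37) and Srebf2 (0.20), with adjusted p from 2.28e-05 to 0.0499 by limma. These 8 are among the 31 genes, where 8.92% of all genes tested showed a larger difference at 30 min.

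In the heated groups the same difference of differences passed for Msmo1 (0.59), Fdps (0.45), Ebp (0.45), Idi1 (0.43), Stard4 (0.38), Sqle (0.34) and Dhcr7 (0.31), where 10.5% of all genes passed in that direction. Scd2 went the other way (-0.38, adjusted p = 0.00814), with the larger genotype difference at 240 min, where 7.25% did.

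The heat difference (heated minus control) was lower at 240 than at 30 min in wildtype cells for Stard4 (-0.75, adjusted p = 0.000383) and Scd2 (-0.39, adjusted p = 0.0495), where 0.519% of all genes passed in that direction. In CHIP null cells it was lower for Stard4 (-0.63, adjusted p = 0.00623), where 1.29% of all genes passed, and higher for Fasn (0.36, adjusted p = 0.0205) and Ebp (0.29, adjusted p = 0.0498), where 1.08% did. The Stard4 values come from its brightest probe. With median centring or with the slide as a block, 0 of the 31 genes passed in either heat test. At most 2 then passed in either genotype test.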

How the results depend on the processing

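Counts of the 31 genes called were 6, 11, 10 and 16 with heat (wildtype at 30 and 240 min, then CHIP null at 30 and 240 min) and 22, 5, 22 and 7 between genotypes (controls at 30 and 240 min, then heated at 30 and 240 min). Median centring gave 0, 6, 19 and 12 with heat and 2, 5 and 0 in the last 3 genotype comparisons. The slide as a block gave 0, 3, 6 and 12 with heat and 14, 0, 9 and 2 between genotypes. The Feature Extraction ratio gave 7 and 9 with heat at 240 min and 1 in the 240 min controls between genotypes. An offset of 10 gave 2 in the 240 min genotype controls. The authors' table, by its own labels, gave 5 and 10 with heat at 240 min and, as a setting added after the data had been seen, 2, 23, 5 and 26 between genotypes. Its columns match arrays that the scanner files give the other time label, so its counts change places between the times. Which set of labels is right is unknown. The cause of the other shifts was not tested. Leaving out 1 array at a time gave 3 to 6, 7 to 11, 8 to 10 and 10 to 19 with heat, 19 to 23, 2 to 5, 17 to 21 and 4 to 12 between genotypes, and 0 to 0 for both interactions. The replicate block, on numbers not taken to pair the arrays, gave 6, 11, 10 and 16 with heat, 24, 7, 22 and 7 between genotypes and 0 for the interactions.

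Of 95 single-gene results, 67 kept their direction and side of the threshold with the slide as a block, 69 with median centring, 83 with the Feature Extraction ratio, 90 with offset 10, 92 without the filter, 85 with the mean of the probes and 95 with the replicate block. With the authors' table, run for heat only, 27 kept both, 11 no longer passed, 1 newly passed and 4 turned. Signs turned in CHIP null cells at 30 min under median centring for Pmvk (-0.15), Srebf1 (-0.38) and Scd1 (-0.34). The mean of the probes turned Fasn in wildtype cells at 240 min (0.14). In the authors' table, whose labels exchange the times, Srebf2 turned in CHIP null cells at 30 min (0.00201) and 240 min (-0.22), as did Acss2 (-0.64) and Fasn (-0.50) at 240 min. Low signal over background limits the dimmer probes.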
